A study of Mus musculus with 9 samples.

Results

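The comparison described here is Gzf1 knockout against wild type in the first sequencing run of a study of mouse embryonic stem cells. The libraries were chosen from the labels by run, and they are 5 of the 9 in the series: 3 knockout libraries (replicates 3, 4 and 5, all labelled V6.5) and 2 wild-type libraries (replicate 3, labelled V6.5, and replicate 4, labelled Cas9-GFP). The other 4 libraries are RGM cells of a second run and are given beside the first run only where stated. V6.5 is an established mouse embryonic stem cell line, and the label Cas9-GFP names a line carrying the Cas9 nuclease and a green fluorescent protein. The 1 wild-type library of that line cannot be told apart from the line itself. All cells grew in serum with LIF on irradiated fibroblast feeders, which were depleted before harvest. The labels do not say whether the knockout libraries are separate clones or cultures, and a p-value here therefore speaks only of how these 5 libraries vary, which may be a technical matter.

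Gzf1 encodes a DNA-binding protein with a BTB domain and zinc fingers. The series title places it at the Dlk1-Dio3 imprinted cluster together with Zfp57, a zinc finger protein that binds methylated imprinting control regions. In that cluster the noncoding transcripts Meg3, Rian and Mirg are expressed from the maternal chromosome, and the protein-coding genes Dlk1, Rtl1 and Dio3 from the paternal one. The comparison asks which transcripts differ when Gzf1 is lost, whether the cluster is among them, and how much the knockout libraries differ among themselves.

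Polyadenylated RNA was measured by 3' end counting with MARS-seq2.0, and the 5 libraries held 4872127 to 7072697 counts. A level is given in CPM (counts scaled to a common library size) with TMM factors, always in the order wild-type replicates 3 and 4, then knockout replicates 3, 4 and 5. In all, 13082 genes were tested. Embryonic stem cell markers were present in every library: the summed CPM (here on plain library totals) of 12 markers was 7880 and 6158 in wild type and 6202 to 7867 in knockout. Feeder fibroblast markers, 15 genes summed, reached 1390 and 944 CPM in the wild-type libraries and 1132 to 1656 CPM in the knockout libraries. Col1a1 was detected in every library. RNA of fibroblast markers was therefore present in both genotypes, and whether it came from feeder cells was not tested. Sums for trophoblast, mesendoderm and 2-cell-like markers overlapped between genotypes, while those of 3 other sets did not. For single genes, 6.81% of all tested lay below in every knockout library and 6.57% above. Primitive endoderm (9 genes, most of the sum from Sparc) reached 755 and 586 CPM against 761 to 829 CPM in knockout, and primed or formative epiblast (4 genes) 58.3 and 48.8 CPM against 70.6 to 81.2 CPM. Sparc itself overlapped between genotypes, and of the epiblast genes only Pou3f1 lay above in every knockout library. The neuroectoderm sum (4 genes, most of it from Tubb3) was lower in knockout, at 201 and 193 CPM against 79.7 to 186 CPM. Its other members did not share this: Sox1 and Pax6 were highest in knockout replicate 4, and Nes overlapped. A wider list of 12 tested neuroectoderm genes had a median log2 fold change of 0.01, with 6 positive and 6 negative. Of that list 1 gene lay below and 0 above. The part of such cells in the differences below was not tested.

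Gzf1 itself measured 8.12 and 18.7 CPM in wild type against 1.67, 9.46 and 5.26 CPM in knockout. The groups overlapped, since knockout replicate 4 lay above wild-type replicate 3. The log2 fold change was -1.31 (SE 0.63, adjusted p = 1.00, edgeR), and an exact two-sided permutation test over the 5 libraries gave p = 0.3, where 0.1 is the smallest value the design allows. A 3' count outside an edited part of a gene does not check the edit; where the edit lies was not stated by the labels.

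One gene passed an adjusted p of 0.05 in edgeR's quasi-likelihood test (0.00764% of 13082), and it was lower in knockout. This count depended on the settings: it was 0 to 12 over the 13 alternatives, 0 without either wild-type library, without knockout replicate 3 or without knockout replicate 5, and 10 without knockout replicate 4. An unadjusted p under 0.05 was reached by 204 genes (1.56%), 106 higher and 98 lower. The lowest wild-type library exceeded every knockout library in 891 genes (6.81%), and the highest fell short of every knockout library in 860 (6.57%).

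The gene that fell was Rab39b, which encodes a small GTPase of vesicle traffic (chromosome X, 75572046 to 75578231, minus strand, GRCm38). It measured 10.5 and 6.79 CPM in wild type against 0.139, 0 and 0 CPM in knockout. In counts this was 76 and 36 against 1, 0 and 0, so knockout was near the limit of detection in all 3 libraries. The ratio of wild type to knockout was 159 (95% exact interval 28.0 to 6353, counting error only). The fitted log2 fold change was -6.85 (SE 0.81, adjusted p = 0.039, edgeR), and Rab39b passed the threshold in 6 of the 11 alternatives that tested it, with adjusted p from 4.79e-11 to 1.00. Of its neighbours among the tested genes, Vbp1 was at -0.10 on the log2 scale (SE 0.19) and Pls3 at -0.12 (SE 0.25). In the second run Rab39b had 13 and 4 counts in wild type and 0 and 0 in knockout, too few to be tested there.

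Among the falls that did not pass, 3 had an adjusted p under 0.4. Hectd3, a HECT-type ubiquitin ligase (chromosome 4, 116995317 to 117005277, plus strand), measured 23.4 and 25.5 CPM in wild type against 5.28, 2.52 and 4.76 CPM in knockout. The groups were well separated, and the log2 fold change was -2.52 (SE 0.39, adjusted p = 0.24, edgeR; 1.22e-05 to 1.00 over the alternatives). Cd320, the cell-surface receptor for transcobalamin-bound vitamin B12 (chromosome 17, 33843091 to 33849774, plus strand), measured 67.7 and 69.8 CPM in wild type against 25.0, 19.3 and 28.6 CPM in knockout. Here too every knockout library was lower, and the log2 fold change was -1.50 (SE 0.26, adjusted p = 0.37, edgeR; 0.000526 to 1.00 over the alternatives). Tecrl, related to trans-2,3-enoyl-CoA reductase, had 54 and 17 counts in wild type and 1, 0 and 2 in knockout, a ratio of 33.7 (95% exact interval 11.1 to 167, counting error only). Its log2 fold change was -4.86 (SE 0.81, adjusted p = 0.32, edgeR), and in the second run it had at most 1 count in any library.

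The remaining falls taken by smallest p had adjusted p of 1.00 and groups that did not overlap. Sohlh2, a germline transcription factor, measured 116 and 101 CPM in wild type against 29.4, 63.0 and 36.6 CPM in knockout (log2 fold change -1.33, SE 0.31). Asz1, a germ-cell protein of the piRNA pathway, was at 3.16 and 6.23 CPM against 0.556, 1.26 and 0.164 CPM. Both genes belong to a list of 32 tested germline genes, whose median log2 fold change was -0.15 beside 0.02 over all tested genes. Of the list 4 members lay below and 0 above (6.81% and 6.57% of all tested genes). Its mean log2 CPM relative to the mean of all libraries was 0.53 in wild-type replicate 4 and -0.08 in wild-type replicate 3. In knockout replicates 3, 4 and 5 this mean was -0.045, 0.042 and -0.44. The list was therefore not lower in every knockout library than in the V6.5 wild-type library. AA467197, 1700019B21Rik and Adh4 had log2 fold changes of -1.63 (SE 0.37), -2.17 (SE 0.46) and -3.39 (SE 0.86). The plot of leading genes by library shows these with the rises.

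**Figure D1:**
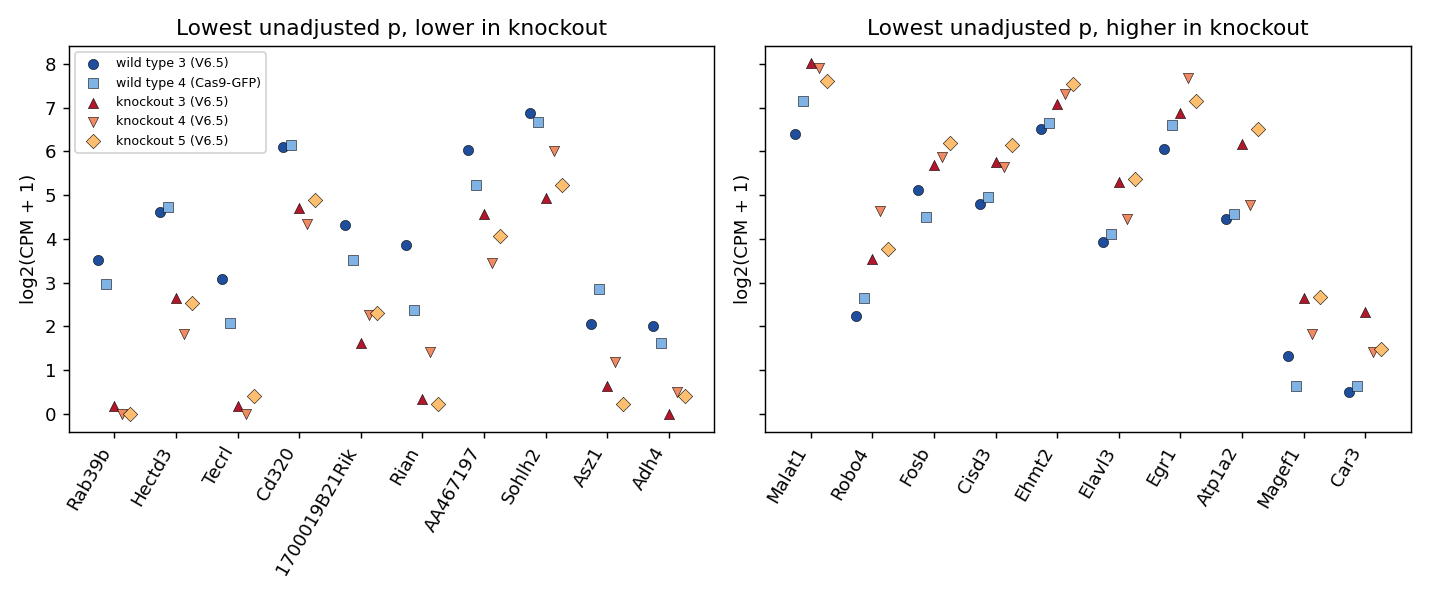
Level of the 10 falls (left) and 10 rises (right) with the smallest unadjusted p, as log2(CPM + 1) on the vertical axis, with 1 point per library and colour and shape giving the library. Knockout and wild type do not overlap in any of these genes, which were taken by p, and Rab39b is the only one past the threshold.

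No gene was called higher (0%), against 106 higher at an unadjusted p under 0.05 in edgeR; DESeq2 and limma also called 0 higher, while 2 were called with no filter on low counts, 3 with a replicate block and 1 without knockout replicate 4. The nuclear noncoding RNA Malat1 measured 83.1 and 141 CPM in wild type against 257, 241 and 194 CPM in knockout (log2 fold change 1.04, SE 0.27, adjusted p = 1.00). Robo4, a receptor known from endothelium, was at 3.71 and 5.28 CPM against 10.7, 24.0 and 12.7 CPM (log2 fold change 1.81, SE 0.47). The histone H3 lysine 9 methyltransferase gene Ehmt2 was at 90.3 and 99.8 CPM against 134, 158 and 184 CPM (log2 fold change 0.74, SE 0.23). Immediate early genes, which respond within minutes to growth signals, included 4 of 24 with every knockout library higher (6.57% of all tested genes), among them Fosb (33.6 and 21.7 CPM against 50.7, 57.6 and 72.6 CPM), Egr1 and Fos. The list's median log2 fold change was 0.13, and 0.43 without wild-type replicate 4. That larger value is set against wild-type replicate 3 alone, the lowest library for this list. The mean over members of log2 CPM minus the 5-library mean was -0.21 there and -0.07 in wild-type replicate 4. Of the 3 genes named, Fosb and Fos (70.0 and 38.7 CPM in wild type) were lowest in wild-type replicate 4. Egr1 (65.9 and 96.8 CPM) was lowest in wild-type replicate 3.

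Of the 8 Dlk1-Dio3 genes, 6 had enough counts to be tested and 0 passed the threshold. In 4 of the 6 every knockout library was lower than both wild-type ones, where 6.81% of all tested genes were. An unadjusted p under 0.05 in edgeR was reached by 4 of the 6, and by 1.56% of all tested genes. The maternally expressed Meg3 (chromosome 12, 109541001 to 109571726, plus strand; its row also names Mir1906-1 and Mir770) measured 258 and 73.8 CPM in wild type against 17.2, 47.9 and 9.69 CPM in knockout. Every knockout library was lower, but the wild-type libraries differed from each other by more than knockout replicate 4 differed from wild-type replicate 4. The log2 fold change was -2.75 (SE 0.72, adjusted p = 1.00, edgeR). Mirg followed the same order of libraries, with 47.0 and 13.6 CPM against 1.11, 6.93 and 0.657 CPM (log2 fold change -3.47, SE 0.92), and Rian with 13.5 and 4.15 CPM against 0.278, 1.68 and 0.164 CPM (log2 fold change -3.74, SE 0.82). In these 3 noncoding transcripts wild-type replicate 3 was highest and knockout replicate 5 lowest.

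The paternally expressed Dlk1, which encodes a Notch-related growth regulator, measured 24.2 and 24.0 CPM in wild type against 8.47, 14.3 and 9.86 CPM in knockout (log2 fold change -1.16, SE 0.34, adjusted p = 1.00, edgeR). Transcripts of both parental origins were therefore lower in the same libraries. Dio3 (-0.17, SE 0.59) and Begain (0.24, SE 0.66) overlapped between genotypes at levels under 8 CPM, and their signs changed with the settings. Rtl1 and Dio3os had 0 to 2 counts per library. None of the 18 tested genes flanking the cluster lay wholly on one side, where 6.81% of all tested genes lay below and 6.57% above. All tested genes of chromosome 12 together lay 0.25 above the other 4 libraries in wild-type replicate 3 (median log2 CPM), and the part of that shift in the cluster's difference was not tested. Without wild-type replicate 3 the log2 fold change of Meg3 was -1.59, and without knockout replicate 4 it was -3.62.

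**Figure D2:**
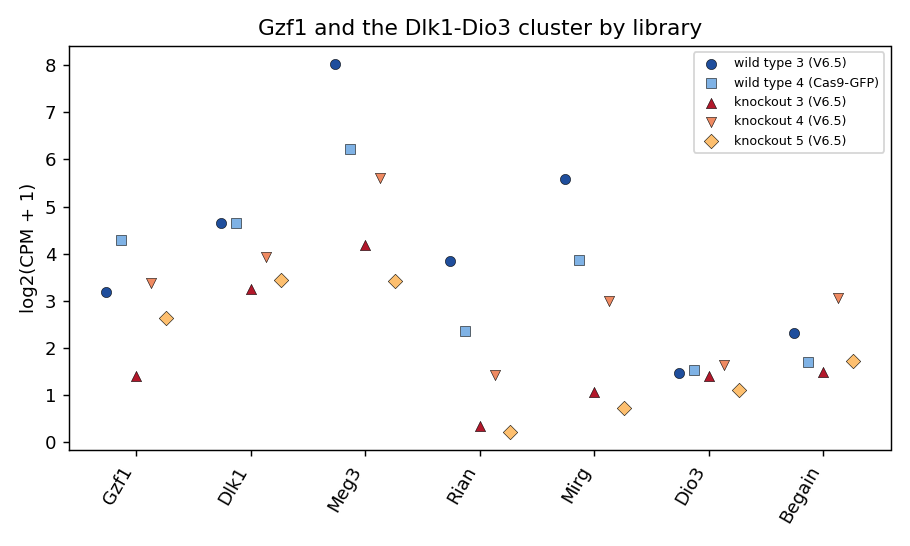
Level of Gzf1 and the 6 tested Dlk1-Dio3 genes as log2(CPM + 1) on the vertical axis, 1 point per library. Dlk1, Meg3, Rian and Mirg are lower in every knockout library, knockout replicate 4 is the highest knockout library in each of these 4, and Gzf1 overlaps between genotypes.

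The second run, fitted alone, shares no library with the first. It called 9 genes (0.0779% of 11553), all lower in knockout, and all 9 were tested in the first run. Of these, 7 had every first-run knockout library below both wild-type libraries, where 6.81% of all tested genes did, and the same 7 had an unadjusted p under 0.05. They were Hectd3, Cd320, Rbmxl1, Dnajb12, Meg3, Mirg and AK207688. The log2 fold change of Hectd3 was -2.45 (SE 0.28) in the second run and -2.52 in the first, and Cd320 -1.37 (SE 0.17) and -1.50. Rbmxl1, an RNA-binding protein gene, was at 98.1 and 110 CPM against 66.5, 45.2 and 32.7 CPM in the first run (log2 fold change -1.11, SE 0.29), and Dnajb12, an Hsp40 co-chaperone gene, at 12.4 and 16.8 CPM against 6.11, 5.25 and 5.09 CPM (-1.40, SE 0.38). The other two were Mest, an imprinted gene (-1.70 in the second run, SE 0.30, and -0.10 in the first, SE 0.42), and Eef1g, which was above in the first run (0.31, SE 0.21). The difference between runs passed the threshold in 0 of 12645 genes (0%), with 182 at an unadjusted p under 0.05.

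Promoter windows of the leading falls were then read for shared letters, which is a description only. The search was made after the values and the sequences had been seen, over 14 patterns and 3 groupings of genes. Windows are from the RefSeq table (GRCm38.p6), 300 bases around each annotated start, and both strands were searched. The 250 bases before the start are shown for 3 genes that hold one string of 10 letters, in capitals, because 2 of them are second-run calls as well. Hectd3 lies at chr4:116995084-116995333, Dnajb12 at chr10:59879333-59879582 and Lurap1l at chr4:80910436-80910685, all on the plus strand.
Hectd3: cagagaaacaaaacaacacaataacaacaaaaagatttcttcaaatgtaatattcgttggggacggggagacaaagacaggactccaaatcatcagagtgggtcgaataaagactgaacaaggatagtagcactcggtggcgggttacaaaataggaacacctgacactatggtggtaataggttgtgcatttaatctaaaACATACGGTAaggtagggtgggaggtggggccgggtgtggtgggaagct
Dnajb12: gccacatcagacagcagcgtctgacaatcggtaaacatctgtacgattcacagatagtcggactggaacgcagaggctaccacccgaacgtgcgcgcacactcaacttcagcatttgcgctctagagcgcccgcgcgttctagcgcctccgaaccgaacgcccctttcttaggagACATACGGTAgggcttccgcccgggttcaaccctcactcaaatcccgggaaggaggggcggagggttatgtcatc
Lurap1l: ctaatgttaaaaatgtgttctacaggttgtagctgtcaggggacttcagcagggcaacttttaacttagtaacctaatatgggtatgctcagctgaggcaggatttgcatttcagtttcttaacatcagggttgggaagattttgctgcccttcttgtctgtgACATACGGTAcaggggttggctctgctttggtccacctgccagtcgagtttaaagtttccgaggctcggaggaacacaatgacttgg

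The string in capitals, ACATACGGTA, was the longest common to Hectd3 and Dnajb12 and stood in 5 of 32851 windows (0.0152%). Of its 3 tested genes, the one outside that comparison was Lurap1l, at 6.05 and 5.47 CPM against 3.33, 2.31 and 2.30 CPM (log2 fold change -1.11, SE 0.47, unadjusted p = 0.038, adjusted p = 1.00, edgeR). Lurap1l is no separate check of the string, since ATACGGTA and CATACGGT, picked by eye before the comparison, also stand in its window. Its pieces of 9 letters, ACATACGGT and CATACGGTA, stood in 16 and 9 windows and in 3 and 5 tested genes, of which the same 3 lay below (median log2 fold change -1.40 and -1.11). Most tested genes that hold a piece of 8 letters had overlapping groups. ATACGGTA stood in 28 windows and 8 tested genes (median log2 fold change -0.01): the 3 above and Alms1, Bud31, Creb3l2, Fbxo46 and Trim6, whose groups overlapped. CATACGGT stood in 37 windows and 10 tested genes (median -0.11), of which the same 3 had an unadjusted p under 0.05, and ACATACGG in 50 windows and 17 tested genes (median 0.05). TACGGT, also present in the window of Cd320, stood in 2.26% of windows and 324 tested genes (median -0.02). Of these 11 had an unadjusted p under 0.05 in edgeR, beside 1.56% of all tested genes. Hectd3, Dnajb12 and Cd320 are among the 11, as is Cisd3 with a higher level in knockout. The longest strings common to Hectd3, Dnajb12 and Cd320, GGCTGCG and GGTAGGG, stood in 8.87% and 4.24% of windows, with median log2 fold changes of 0.03 and 0.00.

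The window of Rab39b (chrX:75578232-75578481, minus strand) is shown as that of the one called gene, with GCGTCTA, the longest string common to Rab39b, Slc10a7 and Sohlh2, in capitals. That of Meg3 (chr12:109540746-109540995, plus strand) has its best match to the published GZF1 responsive element in capitals.
Rab39b: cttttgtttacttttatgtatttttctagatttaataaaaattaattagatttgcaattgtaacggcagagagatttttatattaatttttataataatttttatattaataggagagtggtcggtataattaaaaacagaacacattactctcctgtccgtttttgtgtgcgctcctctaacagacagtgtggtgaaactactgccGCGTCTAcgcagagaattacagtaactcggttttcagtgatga
Meg3: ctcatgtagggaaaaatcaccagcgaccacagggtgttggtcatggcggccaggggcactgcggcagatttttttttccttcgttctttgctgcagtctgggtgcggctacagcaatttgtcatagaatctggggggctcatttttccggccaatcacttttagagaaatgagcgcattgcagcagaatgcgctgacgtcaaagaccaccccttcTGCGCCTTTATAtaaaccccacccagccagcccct
GCGTCTA stood in 0.907% of windows and in 160 tested genes, whose median log2 fold change was -0.04. Of these 16 lay below and 9 above, beside 6.81% and 6.57% of all tested genes. The 16 include Rab39b, Slc10a7 and Sohlh2, from which the string was taken. Its longer forms CGCGTCTA, CGCGTCTAT and GCGCGTCTAT stood in 0.201%, 0.0457% and 0.0244% of windows, with medians of -0.05, -0.13 and -0.16 over 37, 12 and 7 tested genes. Of the other patterns tried, TACGGTA (0.350% of windows), TGCGC (30.4%), TGCGCG (12.6%) and TCTATA (6.97%) had medians between -0.00 and 0.02, and TGCGC joined to TATA by at most 3 letters (0.0852%) one of 0.02. The remaining pair were spaced forms of the element: TGCGC, any letter and TCTATA stood in 0 windows (the full element, which allows other letters in the middle, stood in 1, that of the untested Foxd4), and TGCGC, any 2 letters, C, any letter and ATA in 12 windows and 8 tested genes (median -0.06). The match in Meg3 had 1 mismatch over the 12-letter element, as 0.484% of windows did or better, and its last letters run into a TATA-like stretch. Rab39b and Sohlh2 had 2 mismatches, as 9.44% of windows did or better, and Hectd3 and Cd320 had 4.

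The 3 knockout libraries differed more from each other than the 2 wild-type libraries did. Among 7249 genes with a mean of at least 20 CPM, knockout replicates 4 and 5 were over 2-fold apart in 620 (8.55%), replicates 3 and 4 in 443 (6.11%) and replicates 3 and 5 in 288 (3.97%). Both wild-type libraries, although of different lines, were over 2-fold apart in 129 (1.78%). The closest pair joined the genotypes: wild-type replicate 4 and knockout replicate 4 differed over 2-fold in 63 genes (0.869%). Next came wild-type replicate 3 and knockout replicate 3, with 123 (1.70%), but this place depended on the cutoff. At a minimum mean of 50 CPM that pair differed in 55 genes and the wild-type pair in 49. The common biological coefficient of variation was 30.4% over the knockout libraries and 21.4% over the wild-type libraries. The first principal component (44.7% of the variance) set wild-type replicate 4 (26.7) and knockout replicate 4 (42.3) apart from knockout replicates 3 (-24.9) and 5 (-42.0). Wild-type replicate 3 lay near the centre (-2.03). Knockout replicate 4 is labelled V6.5, and why it lay nearest to the Cas9-GFP library was not tested. The remaining pairs of wild type and knockout had shares over 2-fold apart of 3.78% and 4.21% (wild-type replicate 3 with knockout replicates 4 and 5) and 3.49% and 5.41% (wild-type replicate 4 with knockout replicates 3 and 5). These distances have no test, since no knockout library has a replicate of its own.

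**Figure D3:**
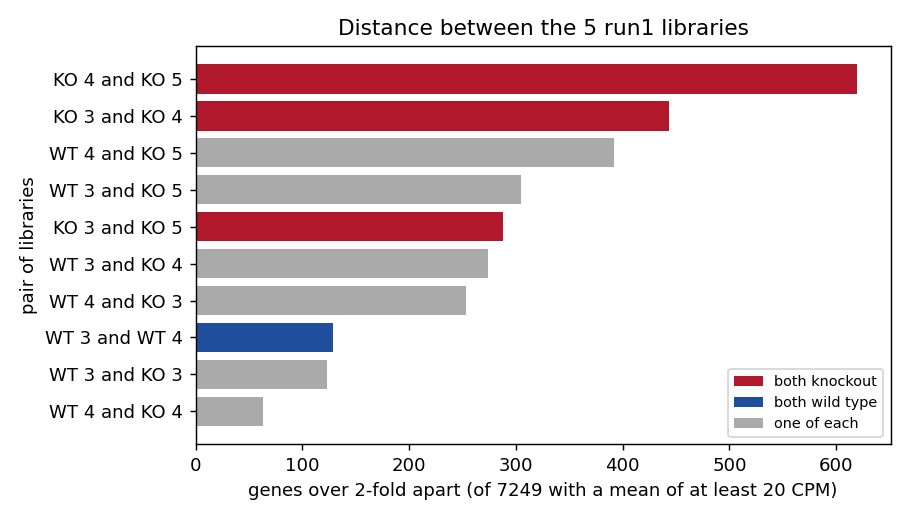
Number of genes over 2-fold apart (horizontal axis, of 7249) for each of the 10 pairs of libraries, with colour giving the genotypes of the pair. The largest bars, 620 and 443, are pairs of knockout libraries, and the smallest, 63, joins wild-type and knockout replicate 4.

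Glycolysis and hypoxia genes differed among the knockout libraries, and this list, like the next ones, was picked from 31 after its values were seen. Knockout replicate 5 was the highest of the 5 libraries in 23 of 30 such genes (25.8% of all tested genes), and knockout replicate 4 the lowest in 22 (22.5% of all tested genes). Egln3, a hypoxia-induced prolyl hydroxylase, measured 115 and 45.5 CPM in wild type against 160, 41.4 and 225 CPM in knockout. Adm, which encodes the hypoxia-induced peptide adrenomedullin, was at 6.60 and 5.10 CPM against 14.4, 2.52 and 23.7 CPM. The genotypes overlapped in all 30 genes, and the list's median log2 fold change of 0.28 came from libraries lying on both sides of wild type. Outside the list, Hopx (77.1 CPM against 9.03 to 20.6 in the other 4 libraries) and Ndufa4l2 (151 against 32.4 to 49.7) were highest in replicate 5, and Mat2a, the S-adenosylmethionine synthetase gene, was lowest there (94.96 against 320 to 435 CPM).

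Knockout replicate 3 was highest in 19 of 32 genes of the integrated stress response, the programme run by the transcription factor Atf4 (19.4% of all tested genes were highest there), and knockout replicate 4 was lowest in 17. Chac1, a glutathione-degrading enzyme induced by Atf4, measured 45.1 and 14.0 CPM in wild type against 47.8, 3.15 and 26.3 CPM in knockout. Replicate 3 was also highest in 21 of 33 fibroblast markers, for example Col1a2 at 216 CPM against 98.1 to 157 CPM in the other 4 libraries, and the part of fibroblast RNA in its differences was not tested. Some single genes were low there. Fmr1nb measured 196 and 291 CPM in wild type against 10.7, 224 and 254 CPM in knockout, and Stra8, a gene of meiotic entry, stood at 51.7 and 72.3 CPM against 12.5, 55.5 and 82.0 CPM. Of the 32 germline genes as a list, replicate 3 was lowest in 8 and highest in 9, so the list as a whole was not low there. Trim12a was the reverse of Fmr1nb, at 94.5 CPM against 11.7 to 23.7 in the other 4.

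Of 19 primitive endoderm genes, 4 lay above in every knockout library (Pdgfra, Dab2, Hnf4a and Lamb1) and 0 below, where 6.57% and 6.81% of all tested genes did, and 0 had an unadjusted p under 0.05. Knockout replicate 4 was the highest library in 12 of the 19 (22.6% of all tested genes), and its Slc38a5, an amino acid transporter gene, was at 62.2 CPM against 6.67 to 26.5 in the other 4 libraries. Wild-type replicate 4 and knockout replicate 4 shared some low-level 2-cell-stage transcripts: Zscan4c had 12 and 8 counts in them and 0 or 1 elsewhere. Other markers of that stage did not follow. Zfp352 had 11 counts in knockout replicate 3 and 4 or 5 elsewhere, and Zscan4d had 0 in wild-type replicate 4 and 3 in knockout replicate 4. Dazl, a germ-cell RNA-binding protein gene, was also high in wild-type replicate 4 and knockout replicate 4 (83.4 and 96.4 CPM against 15.0 to 36.2). The X-linked lymphocyte-regulated gene Xlr3a showed another pairing, measuring 90.5 and 97.9 CPM in wild type against 17.1, 105 and 6.41 CPM in knockout, so knockout replicates 3 and 5 were low and replicate 4 was not. Its relatives Xlr3c, Xlr4b and Xlr4c were likewise lowest in knockout replicates 3 and 5, and near-identical copies in this family may share counts.

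**Figure D4:**
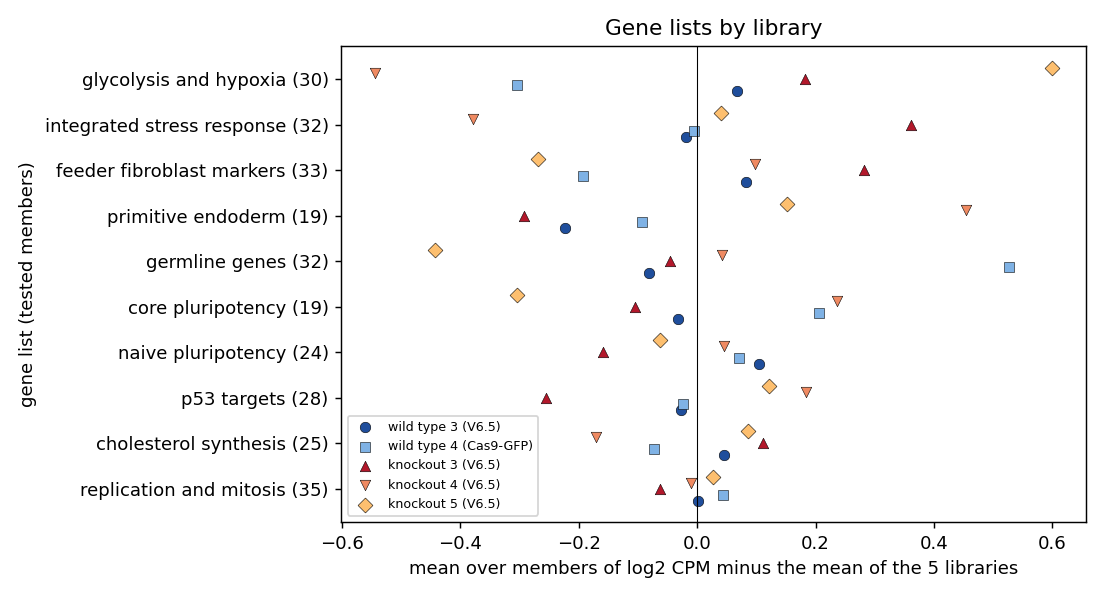
Mean over the tested members of each list of log2 CPM minus the mean of the 5 libraries (horizontal axis), 1 point per library, for 10 of the 31 lists chosen after their values were seen. Knockout replicates 4 and 5 mark the 2 ends for glycolysis and hypoxia, and knockout replicates 3 and 4 for the integrated stress response.

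Pluripotency genes are given here beside the 6.81% of all tested genes that lay below in every knockout library and the 6.57% that lay above. Of 19 core pluripotency genes 2 lay below and 0 above, Nanog (1084 and 799 CPM against 676, 786 and 554 CPM) and Gdf3, with a list median of -0.12 and 0 called. Of 24 naive pluripotency genes 3 lay below and 1 above (median -0.06, 0 called, 1 at an unadjusted p under 0.05). Of 35 factors of imprint protection and DNA methylation 2 lay below and 6 above, against the same 6.81% and 6.57% of all tested genes (median 0.00, 0 called, 1 at an unadjusted p under 0.05), Ehmt2 and the methyltransferase cofactor gene Dnmt3l among the 6. Imprinted genes elsewhere gave medians of 0.12 (19 maternally expressed) and -0.05 (31 paternally expressed), with 0 called in either; Peg10 was at 359 and 286 CPM against 762, 414 and 397 CPM. The Hox and GDNF-Ret list, pathways named with GZF1 in other tissues, had 9 tested genes, none wholly on one side.

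Whole chromosomes shifted by library. Against the mean of the other 4 libraries, the median log2 CPM of chromosome 6 was 0.36 higher in wild-type replicate 3 and -0.33 in knockout replicate 5, and that of chromosome X was 0.31 higher in wild-type replicate 3. Chromosome 8 was 0.29 higher in knockout replicate 3, chromosome 14 was 0.32 higher in knockout replicate 4, and chromosomes 5 and 17 were 0.29 and 0.28 higher in knockout replicate 5. Over all tested genes the same medians were -0.00188 to 0.00928. On chromosome 18, 20.2% of 302 genes had every knockout library above and 0.993% below, and on chromosome 6, 14.1% of 583 genes lay below and 2.06% above, beside 6.57% above and 6.81% below over all genes. Counts of genes with separated genotypes therefore moved with the chromosome, and the part of copy number or any other source in this was not tested. Among the genes named above as lower in knockout, Asz1 lies on chromosome 6, Sohlh2 and Adh4 on chromosome 3 and Rab39b on chromosome X, whose knockout minus wild-type medians were -0.19, -0.13 and -0.13. Cd320 lies on chromosome 17 and Tecrl on chromosome 5, whose medians were on the other side (0.16 and 0.07), and Hectd3 on chromosome 4 (-0.04). Among those higher in knockout, Egr1 lies on chromosome 18, Ehmt2 on chromosome 17 and Malat1 on chromosome 19, with medians of 0.24, 0.16 and 0.14.

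**Figure D5:**
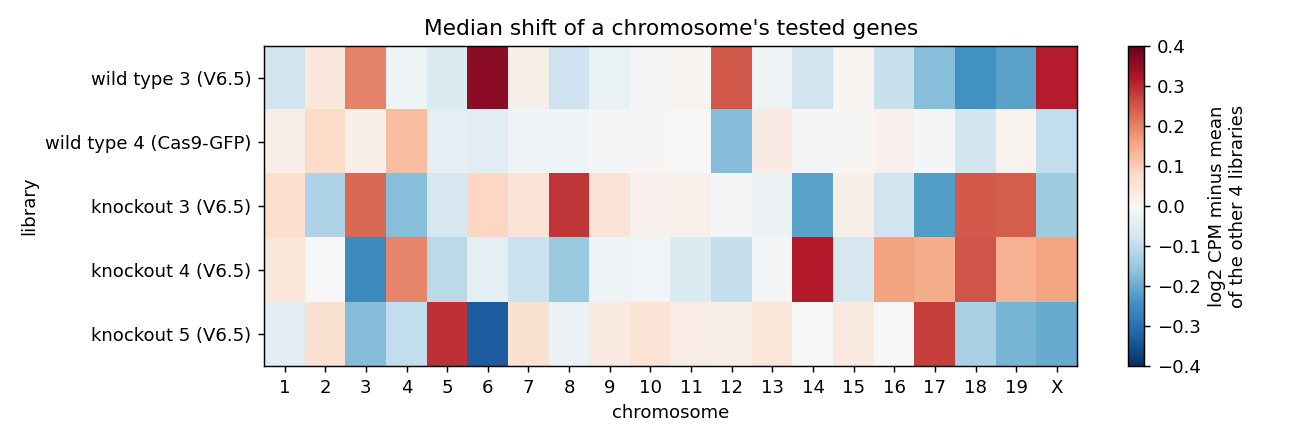
Median over the tested genes of each chromosome of log2 CPM in 1 library minus the mean of the other 4 (colour), by library (rows) and chromosome (columns). The strongest cells are chromosome 6 in wild-type replicate 3 (0.36) and knockout replicate 5 (-0.33).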

How the data were processed

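The authors deposited 1 table of raw counts per gene symbol, in whole numbers, for poly(A)+ MARS-seq2.0 libraries. The submitters' processing notes list STAR, DESeq2 and mm10, with no versions or roles. The counter, strand handling and use of molecular identifiers were stated by none of the labels, so antisense and overlapping genes cannot be separated and intervals cover counting error only. Of 30324 rows, 92 spike-in rows were dropped, and 1420 tested rows name several symbols. The 5 run1 libraries were fitted alone in edgeR 4.0.16 (R 4.3.3): filterByExpr with a minimum count of 10, TMM, robust quasi-likelihood F test, Benjamini-Hochberg over 13082 genes, threshold 0.05. The SE of a log2 fold change follows from its F statistic (size over root F). Log2 CPM uses a prior count of 2. Adjusted p-values are from edgeR unless another tool is named. No pair of libraries agreed within sampling noise (chi-square per degree of freedom 7.89 to 24.0). A count of 3 corresponds to 0.424 to 0.616 CPM. Positions are from GENCODE on GRCm38. The fit was also run on simulated counts drawn from its own estimated dispersions, with no chromosome shifts. Such counts cannot show how the fit behaves with the shifts seen here.

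The libraries, gene lists and comparisons were chosen with earlier results of these data known. Named genes are Gzf1, the Dlk1-Dio3 genes, the 10 falls and 10 rises past the threshold or, where fewer passed, of smallest p, up to 4 members of each list, and the genes that set single libraries or the knockout libraries apart. Dnajb12, Rbmxl1, Slc10a7, Lurap1l, Xlr4b, Xlr4c, Mrgpra6, AK207688, Mest, Eef1g, Egln3, Adm, Col1a2, Pdgfra, Dab2, Hnf4a, Lamb1, Sparc, Tubb3, Pou3f1, Sox1, Pax6, Nes, Zscan4c, Dazl, Gdf3, the neighbours of Rab39b and the other genes named for promoter strings were chosen after their values were seen. Promoter patterns comprised 6 tried at first, 8 picked by eye from the windows and 4 longest common strings from 3 groupings. The consensus of the GZF1 responsive element came from general knowledge and is in no file used here.

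Alternatives were RLE scaling, no filter, at least 50 counts in 2 libraries, the non-robust fit, a contrast from all 9 libraries, a replicate term, leaving out each library, DESeq2 1.42.0 and limma 3.58.1.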

Additional observations from a re-analysis of the deposited data

Results flagged for a closer look

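Cisd3, which encodes an iron-sulfur protein of mitochondria, and Mrgpra6, a sensory neuron-type receptor gene, moved in opposite directions in the 2 runs, with every knockout library on one side in each run. Cisd3 measured 27.0 and 30.0 CPM in wild type against 53.4, 49.0 and 69.5 CPM in knockout in the first run (log2 fold change 1.01, SE 0.27), and its log2 fold change was -0.42 in the second. The difference between runs was 1.41 (SE 0.35) with an adjusted p of 1.00 in edgeR, so it did not pass. Mrgpra6 was at 59.3 and 88.9 CPM against 14.9, 59.0 and 10.7 CPM in the first run (log2 fold change -1.41, SE 0.67), where knockout replicate 4 lay close to wild-type replicate 3, and its log2 fold change was 1.13 in the second run at levels under 10 CPM. Its difference between runs was -2.57 (SE 1.13) and did not pass either.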

How the results depend on the processing

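The number of genes past the threshold was 1 in the reported fit and 1 with RLE scaling and with limma. It was 12 with no filter on low counts (2 higher, 10 lower), 0 with at least 50 counts in 2 libraries (which leaves out Rab39b), 0 without the robust option, 2 in the contrast from all 9 libraries (Cd320 and Hectd3) and 3 with DESeq2 (Cd320, Hectd3 and Rab39b). Leaving out 1 library gave 0 to 10. Those without knockout replicate 4 included Hectd3, Mirg, Mrgpra6, Rab39b, Rian, Sohlh2, Xlr3a, Xlr4b and Xlr4c. The cause of these changes was not tested. With a replicate block the count was 10 (3 higher, 7 lower). The labels do not say that replicate numbers mark shared cultures, and number 4 joins 2 lines, so the numbers were not taken as pairs. The deviations of same-numbered libraries correlated at 0.31 and 0.38 across genes. These values are not separate, because the deviations of the 2 wild-type libraries are equal with opposite sign. Knockout replicate 5, which has no same-numbered wild-type library, correlated at 0.145 with wild-type replicate 3. At a minimum mean of 50 CPM the genes over 2-fold apart were 174 for knockout replicates 3 and 4, 119 for replicates 3 and 5 and 271 for replicates 4 and 5. Hectd3, Cd320, Meg3, Rab39b, Dnajb12 and Sohlh2 kept their sign in every alternative that tested them.

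Named genes near 0 changed sign. With the replicate block Dio3 was 0.0195, Hsp90aa1 0.0194, Yy1 0.00816 and Ncam1 0.0186 on the log2 scale. With limma Begain was -0.235, Hsp90aa1 0.0316, Ccng1 -0.0760 and Gtse1 -0.0624. Leaving out 1 library gave Begain -0.626 to 0.710, Hsp90aa1 -0.308 to 0.350, Yy1 -0.296 to 0.0911, Ccng1 -0.224 to 0.224, Gtse1 -0.282 to 0.425 and Spry1 -0.121 to 0.328. It gave Dio3 -0.368 to 0.0252, Ppp2r5c -0.0371 to 0.508, Dync1h1 -0.0996 to 0.656 and Ncam1 -0.566 to 0.0142. The median of the 2-cell-like list could not be computed without knockout replicate 4, where no member passed the filter.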
